A study of Homo sapiens with 6 samples.

Results

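Signals of 10 interferon-induced antiviral genes were examined in SKBR3, a cell line established from a human breast cancer, in which the gene of the receptor tyrosine kinase HER2 is amplified. Members were 12 array probes out of 47231, chosen by a list that pairs each probe with a gene: IFIT1 and IFIT3 with 2 probes each, and IFIT2, IFI44, IFI44L, ISG15, MX1, OAS1, OAS2 and OAS3 with 1 probe each. The pairing of probe and gene came from that list and was not checked against an annotation of the array. The groups were 3 arrays of cells overexpressing CDCP1 and 3 arrays of control cells whose titles name GFP, a fluorescent protein. CDCP1 is a transmembrane glycoprotein that SRC family kinases phosphorylate. The labels give SKBR3 as the line of all 6 samples and no interferon treatment or drug. They do not say how CDCP1 or GFP was introduced, whether the cells were a clone or a pool, or whether the 3 experiments of a group were separate cultures, so the p-values reflect the spread between samples that may be technical repeats.

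Interferons are secreted proteins that a cell releases on sensing viral nucleic acid. Type I interferons bind the receptor IFNAR1 and IFNAR2, the kinases JAK1 and TYK2 are then activated, and a transcription factor complex that contains IRF9 forms. That complex binds the interferon-stimulated response element (ISRE), a DNA site built on repeated GAAA, and raises transcription of a large set of genes that includes all 10 described here. In breast tumours such genes are known as an interferon signature that some lines and patients carry without any infection.

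Promoter stretches are shown because the GAAA repeat is what a regulator of this family reads. RefSeq promoter windows (GRCh38.p14, from 250 bases before to 50 after a start site) matched 8 of the 10 genes, through 12 windows, and IFIT2 and OAS2 were not among them. The ISRE core was searched as GAAANNGAAA on either strand. It was present in 10 of the 12 windows and in 7 of the 8 genes, against 3.57% of 35116 windows of the same length and 4.38% of 27305 genes. The windows of IFI44 overlap and hold the same matches, so those are counted in each. OAS1 was the gene without GAAANNGAAA and held the closer repeat GAAANGAAA, which 3.12% of all windows held. The GAAANGAAA repeat was present in 5 of the 8 genes, against 3.87% of all genes. A GAAANNGAAA match overlapped one in IFIT3, IFI44, MX1 and OAS3. These are matches of letters and were not tested for binding. Each stretch below has 30 bases on the plus strand, which is the strand of the gene, with the repeat in capitals. Capitals mark the most upstream GAAANNGAAA match in the windows and any further match within 30 bases, and GAAANGAAA for OAS1; TTTC in capitals is GAAA read on the opposite strand.
IFIT1, chr10:89392504-89392533: tagTTTCACTTTCcccTTTCGGTTTCccta
IFIT3, chr10:89327831-89327860: agccgttaggTTTCATTTTCctcctcccaa
IFI44, chr1:78649761-78649790: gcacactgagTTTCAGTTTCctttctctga
IFI44L, chr1:78620274-78620303: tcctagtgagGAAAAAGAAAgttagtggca
ISG15, chr1:1013377-1013406: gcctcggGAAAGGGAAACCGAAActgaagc
MX1, chr21:41420559-41420588: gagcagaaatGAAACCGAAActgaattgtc
OAS1, chr12:112906935-112906964: cccttctgagGAAACGAAAccaacagcagt
OAS3, chr12:112938321-112938350: agaaagaaacGAAACTGAAAgcagggaatt
IFIT1 and ISG15 each hold a pair of matches within one stretch, and those of ISG15 overlap. The MX1 stretch lies 1 to 30 bases after the most upstream of its 3 start sites, whereas the IFIT1 and ISG15 stretches lie before theirs, from -119 to -90 and from -120 to -91.

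**Figure D1:**
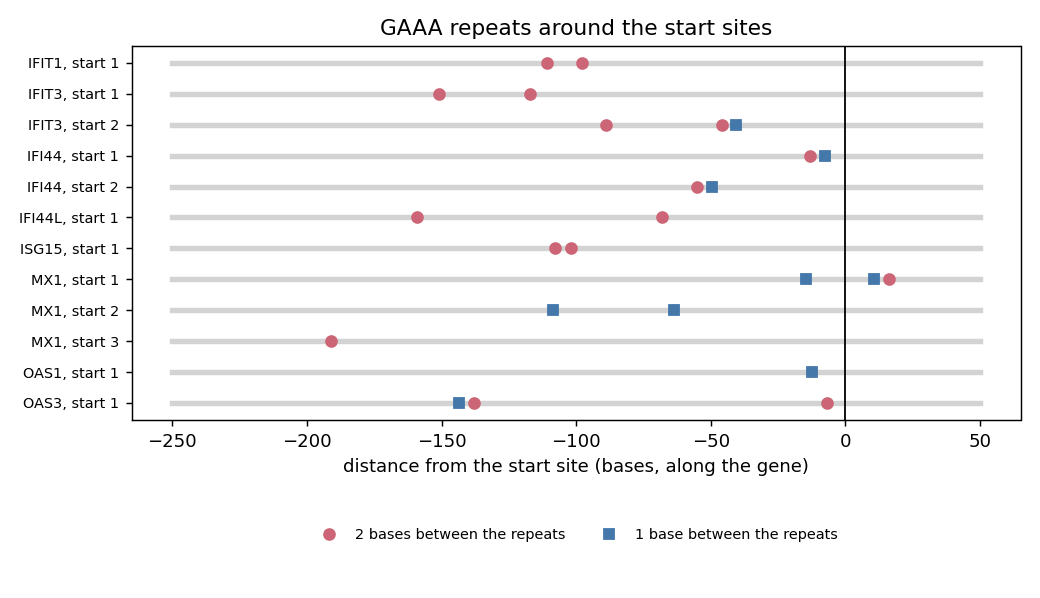
GAAA repeats in the 12 RefSeq promoter windows of 8 genes, by distance from the start site in bases (negative is upstream). The windows of IFI44 overlap and show the same repeats. Circles mark repeats with 2 bases between them (GAAANNGAAA) and squares repeats with 1 base between them (GAAANGAAA), each at its centre; every window holds at least 1 mark, and the windows of OAS1 and of the second MX1 start hold squares alone.

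All values are probe signals as the authors deposited them, read here as log2, on which scale a difference of 1 is a doubling. The folds below rest on that reading, because a transform close to log2 could not be told apart from log2. A probe's brightness depends on its sequence, so levels are compared between arrays for one probe and never between probes. A background level was estimated from the peak of dim probes at 6.62, and a signal above 6.68 counted as above background. Probes above that limit on at least 3 arrays were tested, which kept 31511 of 47231 probes (66.7%). The tests were two-sided in limma with Benjamini-Hochberg adjustment over all tested probes, and the threshold was an adjusted p of 0.05. Over the tested probes the SE of the log2 change had a median of 0.0706, a precision that the number of arrays limits. One array stood apart: over the tested probes CDCP1 replicate 1 differed from the mean of the others in its group with an SD of 0.18, against 0.0989 to 0.138 for the remaining 5 arrays. The probe for CDCP1 itself and the markers of SKBR3 were not identified here, so neither the overexpression nor the cell line was checked.

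Several of these probes gave signals near or below background in the control and in the CDCP1 cells, as did many probes of the whole array. Of the 12 probes, 5 were above the limit on all 6 arrays (the second IFIT1 probe, ISG15, MX1, OAS1 and OAS3), 4 were below it on every array (both IFIT3 probes, IFI44L and OAS2), and 3 crossed it (the first IFIT1 probe, IFIT2 and IFI44). On any single array 7 or 8 of the 12 were above the limit, beside 65.4% of all probes on each array. For comparison, 48.5% of all probes were above it on all arrays and 14.2% were below it on all. After the filter, 8 probes of 7 genes were tested.

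**Figure D2:**
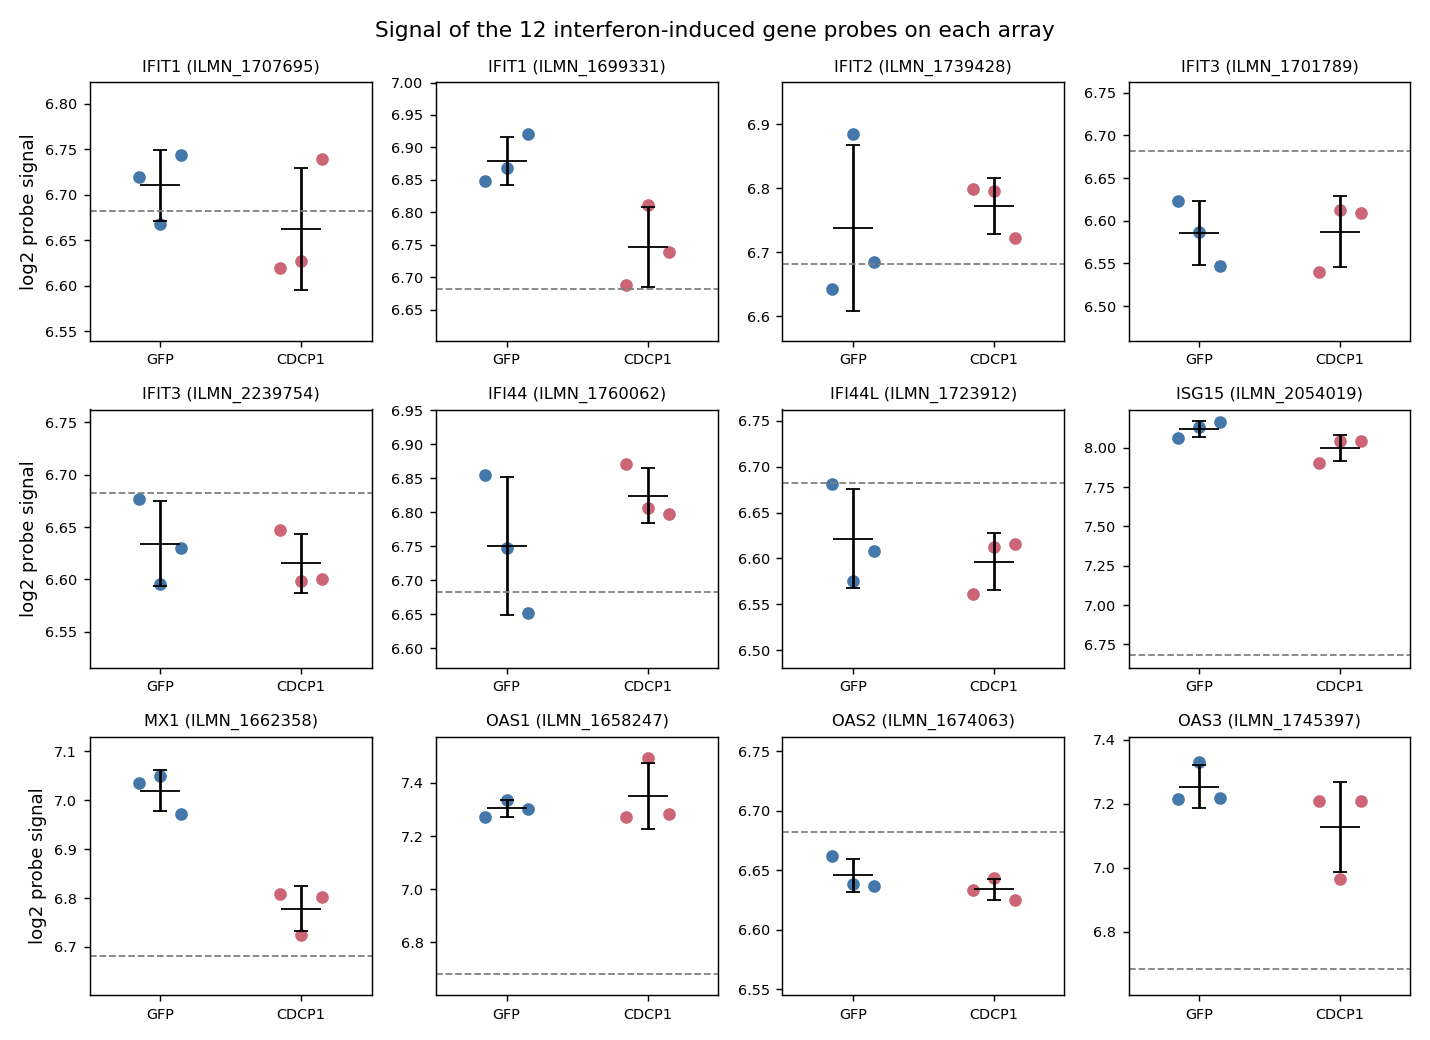
Log2 signal of each of the 12 probes on the 3 GFP control arrays (blue) and the 3 CDCP1 arrays (red), in the order of replicates 1, 2 and 3. Black bars give the mean and SD of a group (n = 3) and the dashed line is the background limit of 6.68; vertical scales differ between panels. In MX1, ISG15, OAS3 and the second IFIT1 probe all CDCP1 points lie below all control points. In both IFIT3 probes, IFI44L and OAS2 every point lies below the line.

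In the cells labelled as overexpressing CDCP1, 1 of the 8 tested probes passed the threshold as lower, that of MX1 (1.18-fold), and 0 passed it as higher. The count was also 1 without CDCP1 replicate 1, the array that stood apart, and 0 without any other single array or with the experiment number as a block, where MX1 kept an unadjusted p under 0.05. This share is read against the whole array, where 5.26% of tested probes passed the threshold, 2.61% higher and 2.64% lower. Of the 8, 1 had an unadjusted p under 0.05, against 17.1% of tested probes. The median log2 change over all 12 members, tested or not, was -0.02, beside 0.000068 over all 47231 probes. Over the tested probes the lower and upper quartiles of the log2 change were -0.07 and 0.06. The 12 changes ran from -0.24 to 0.07, with 8 below 0 and 4 above. In 6 of the 12 probes the lowest value was on CDCP1 replicate 1, the array that stood apart. Among them were IFI44L and a probe of IFIT3, which were below background on every array. How often that array held the lowest value over all probes was not counted. In 4 of the 12 probes every CDCP1 value lay below every control value, and in 0 every CDCP1 value lay above; over all probes the groups were separate in these ways in 8.77% and 9.16%.

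MX1 encodes MxA, a GTPase related to dynamin that traps the nucleocapsids of influenza and other viruses. Its probe (ILMN_1662358) gave 7.04, 7.05 and 6.97 on the control arrays and 6.81, 6.72 and 6.80 on the CDCP1 arrays. All 3 CDCP1 values were below all 3 control values, with a gap of 0.16 between the groups, and all 6 were above background. Control arrays averaged 7.02 ± 0.042 (SD, n = 3) and CDCP1 arrays 6.78 ± 0.047 (SD, n = 3), so the difference exceeded the spread within either group. The fall was -0.24 on the log2 scale with an SE of 0.061 and a 95% interval from -0.38 to -0.11 (limma adjusted p = 0.0471). The CDCP1 cells were thus 1.18-fold lower (95% interval 1.08 to 1.30). The call lies close to the threshold. It was lost without any 1 of the 3 control arrays (adjusted p = 0.156, 0.175 and 0.117 in limma without replicate 1, 2 or 3), without CDCP1 replicate 2 (0.174) and without CDCP1 replicate 3 (0.0703), and it held without CDCP1 replicate 1 (log2 change -0.26, adjusted p = 0.0358). With the experiment number as a block it was also lost (limma adjusted p = 0.114), with the same log2 change. Over all 6 arrays the signal of MX1 lay only 0.22 above the limit on average, where differences may be compressed. The CDCP1 values, 6.72 to 6.81, were closer to the limit of 6.68 than any control value. They were also near the median of all probes on those arrays, 6.79. With part of the background removed (normexp) the log2 change was -0.37 with an SE of 0.089 (limma adjusted p = 0.0343). Normexp also enlarged the change of every other tested member, so the larger size for MX1 is not evidence of a larger true change. Here and below, normexp was run on values that the authors had already normalized, not on raw signals, and its sizes depend on that.

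ISG15 is a small ubiquitin-like protein that is attached to other proteins and also secreted. Its probe (ILMN_2054019) gave 8.06, 8.13 and 8.16 on the control arrays and 7.90, 8.04 and 8.04 on the CDCP1 arrays. All 6 values were above the limit, by 1.38 on average. The groups did not overlap, but the gap between them was 0.02, smaller than the SD within either group. The means were 8.12 ± 0.052 (SD, n = 3) and 8.00 ± 0.081 (SD, n = 3), and the log2 change of -0.12 did not pass the threshold (SE 0.066, 95% interval -0.27 to 0.02, limma adjusted p = 0.404). As a fold this interval runs from 1.20-fold lower to 1.02-fold higher in the CDCP1 cells. Without CDCP1 replicate 1, which held the lowest value, the log2 change was -0.08 (limma adjusted p = 0.614).

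The IFIT proteins bind foreign RNA ends and block their translation, and IFIT1 recognises viral caps that lack a methyl mark. The second IFIT1 probe (ILMN_1699331) gave 6.85, 6.87 and 6.92 in the control and 6.69, 6.81 and 6.74 in the CDCP1 cells. The groups did not overlap, with a gap of 0.04. All 6 values were above background, the lowest (6.69) just over the limit of 6.68. Its log2 change of -0.13 did not pass the threshold (SE 0.063, 95% interval -0.27 to 0.01, limma adjusted p = 0.316). With normexp the log2 change was -0.21 and the limma adjusted p was 0.267. The first IFIT1 probe (ILMN_1707695) gave 6.72, 6.67 and 6.74 in the control and 6.62, 6.63 and 6.74 in the CDCP1 cells. These groups overlapped, and the probe was above background on exactly 3 arrays, the fewest that allowed a test. The estimated log2 change was -0.05 with an SE of 0.063 and a 95% interval from -0.19 to 0.09 (limma adjusted p = 0.808), and -0.08 with normexp (limma adjusted p = 0.758). With 1 array left out it ran from -0.087 (without CDCP1 replicate 3) to -0.027 (without CDCP1 replicate 1). The probes of IFIT1 thus had changes of the same sign and different size, and whether they differ was not tested.

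IFIT2 forms complexes with the other IFIT proteins and promotes cell death in some cells. Its probe (ILMN_1739428) gave 6.64, 6.89 and 6.69 in the control and 6.80, 6.80 and 6.72 in the CDCP1 cells. The groups overlapped, and the highest and the lowest of the 6 values were both controls. The log2 change was estimated at 0.03 with an SE of 0.075 and a 95% interval from -0.13 to 0.20 (limma adjusted p = 0.895), and it turned to -0.013 without GFP replicate 1. IFIT3 stabilises IFIT1 on RNA. Its probe ILMN_1701789 gave 6.62, 6.59 and 6.55 in the control and 6.54, 6.61 and 6.61 in the CDCP1 cells, and its probe ILMN_2239754 gave 6.68, 6.60 and 6.63 against 6.65, 6.60 and 6.60. Neither was above background on any array, so no fold is given. With these probes no rise of IFIT3 above the limit was seen, and a change below the limit was not detectable.

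IFI44 and IFI44L are related, neighbouring genes on chromosome 1 that interferon induces strongly and whose functions are less settled. The IFI44 probe (ILMN_1760062) gave 6.85, 6.75 and 6.65 in the control and 6.87, 6.81 and 6.80 in the CDCP1 cells. The groups overlapped, because the control values spread more widely (SD 0.10) than the CDCP1 values (SD 0.041). On the log2 scale the change was 0.07 with an SE of 0.069 and a 95% interval from -0.08 to 0.23 (limma adjusted p = 0.698), and 0.12 with normexp (limma adjusted p = 0.641). With 1 array left out it ran from 0.024 (without GFP replicate 3) to 0.13 (without GFP replicate 1). The IFI44L probe (ILMN_1723912) gave 6.68, 6.58 and 6.61 in the control and 6.56, 6.61 and 6.62 in the CDCP1 cells, all below the limit. No rise above the limit was seen with this probe, and a change below it was not detectable.

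The OAS enzymes sense double-stranded RNA and make short adenylate chains that switch on RNase L, which cuts viral and cellular RNA. The OAS1 probe (ILMN_1658247) gave 7.27, 7.34 and 7.30 in the control and 7.27, 7.49 and 7.28 in the CDCP1 cells. CDCP1 replicate 2 was the high value, and the other CDCP1 arrays lay within the control range or at its lower edge. The estimated log2 change of OAS1 was 0.05 with an SE of 0.073 and a 95% interval from -0.11 to 0.21 (limma adjusted p = 0.847), and -0.026 without that array. The OAS3 probe (ILMN_1745397) gave 7.21, 7.33 and 7.22 in the control and 7.21, 6.96 and 7.21 in the CDCP1 cells. Here CDCP1 replicate 2 was the low value, and the others lay just under the lowest control, so the groups were separated by only 0.0041. OAS3 had a log2 change of -0.13 with an SE of 0.079 and a 95% interval from -0.30 to 0.05 (limma adjusted p = 0.495), and -0.04 without CDCP1 replicate 2 (limma adjusted p = 0.856). OAS1 and OAS3 thus moved in opposite directions on that array. The OAS2 probe (ILMN_1674063) gave 6.66, 6.64 and 6.64 in the control and 6.63, 6.64 and 6.63 in the CDCP1 cells, all below the limit.

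**Figure D3:**
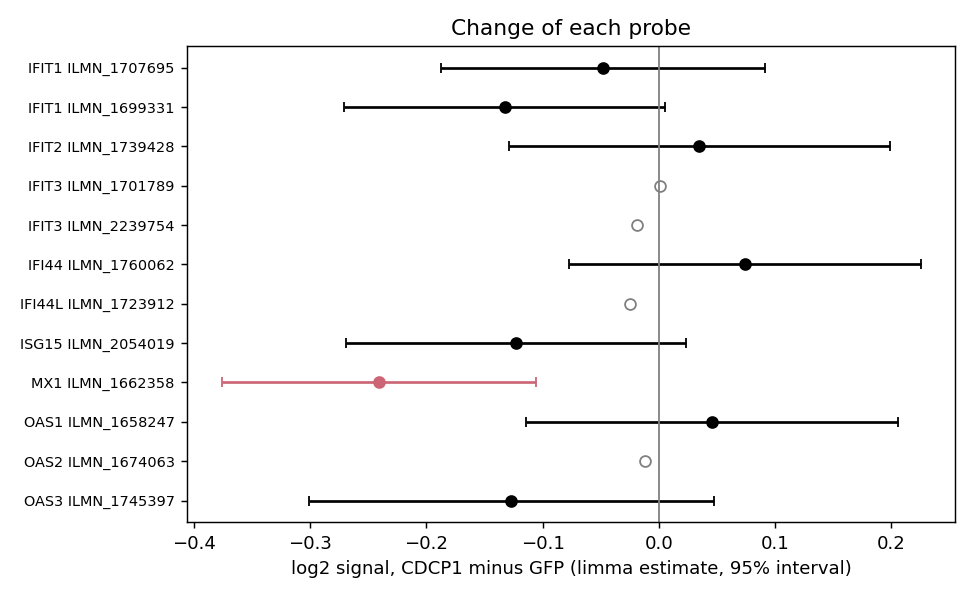
Log2 signal in CDCP1 minus GFP cells for each probe. Filled points with bars are limma estimates with 95% intervals for the 8 tested probes, MX1 in red because its adjusted p was 0.0471; open grey points are differences of means for the 4 probes below background, which were not tested. Only the interval of MX1 excludes 0.

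The intervals bound the size of change of the tested probes. Across the 8 probes the 95% intervals reached at most 1.17-fold higher, for IFI44, and at most 1.30-fold lower, for MX1. These limits hold on the deposited scale, on which changes of dim probes may be compressed, and they say nothing of IFIT3, IFI44L and OAS2. For comparison, the median size of change among all probes past the threshold was 0.37 on the log2 scale, larger than the 0.24 by which MX1 fell.

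**Figure D4:**
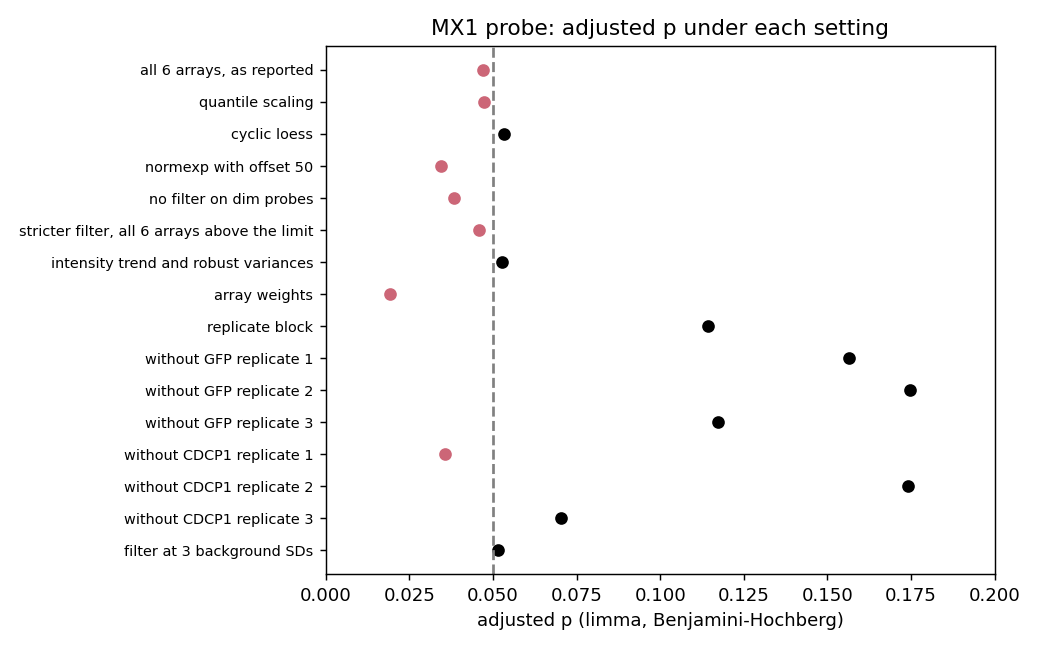
Adjusted p of the MX1 probe in limma (horizontal axis) with all 6 arrays and under 15 other settings (vertical axis); the dashed line is the threshold of 0.05. Red points pass it and black points do not: 6 of the 15 alternatives kept the call, and 9 lost it, with adjusted p from 0.0516 to 0.175.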

How the data were processed

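Total RNA of 6 samples was labelled with biotin as cRNA and hybridised to Illumina bead arrays. The arrays were read with GenomeStudio, per the submitters' processing notes. The deposited values were read as log2 signals already normalized between arrays by the authors. They run from 6.45 to 14.35, with array medians within 0.000523 of each other. The normalization was not given in the sources used here, and a transform close to log2 cannot be told apart from log2. The 2 deposited tables differed in 0 probes, although one is named as non-normalized. Detection p-values were not used here.

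The mode of all values (kernel bandwidth 0.01) plus 1.645 times the root mean square distance of values below it (0.0407) gave the background limit. limma 3.58.1 in R 4.3.3 (lmFit, eBayes, no trend, no block) compared CDCP1 with GFP on all 6 arrays. The script was tested on simulated data. The experiment numbers were not treated as pairs, because nothing in the labels says that they pair the samples. Same-numbered arrays deviated from their group means with correlations of -0.27, -0.30 and 0.16. GFP replicate 2 and CDCP1 replicate 1 had 0.38. Deviations within groups this small cannot settle whether the samples are paired. All 6 arrays share 1 slide.

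Alternatives covered scaling, background, filter, variance model, array weights, the block and each array left out. All 12 members are named. The members and lists were chosen with earlier results of these data known. The planned lists of interferon ligands, receptors, sensors, regulators and other induced genes, the markers, the CDCP1 transcript, other probes of the same genes and the most similar probes need a table of probe names and were not analysed here.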

Additional observations from a re-analysis of the deposited data

How the results depend on the processing

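The count of probes past the threshold over the whole array was 1657. It was 2611 with array weights, 1085 with a replicate block on the experiment numbers, and 600 to 2124 with 1 array left out; the cause was not tested. Under quantile scaling, cyclic loess, normexp with an offset of 50, no filter, the stricter filter, trend with robust variances, and a filter at 3 background SDs chosen after seeing the data, it stayed within 1.5 times. Of the members, 1 passed, MX1. The count was 0 with cyclic loess, 0 with trend and robust variances, 0 with the replicate block and 0 with the filter at 3 background SDs, and 0 to 1 with 1 array left out. In each setting with 0 calls in limma, MX1 had an unadjusted p under 0.05, from 0.00271 to 0.0128. The log2 change of MX1 kept its sign in all 15 alternatives, from -0.37 to -0.21, and its adjusted p ran from 0.0192 to 0.175. It was 0.0533 with cyclic loess, 0.0527 with trend and robust variances and 0.0516 with the added filter, close to the threshold. The other 7 tested members passed in 0 of the 98 alternative values tested, with adjusted p from 0.218 to 0.989. With 1 array left out the change of IFIT2 ran from -0.013 to 0.11 and that of OAS1 from -0.026 to 0.085, so their signs are not settled. Another probe of a gene in place of a member was not run. Low signal kept IFIT3, IFI44L and OAS2 out of every filtered test. With no filter their limma adjusted p was 0.996 and 0.937 (IFIT3), 0.913 (IFI44L) and 0.960 (OAS2), from values below the limit.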
